A study of Rattus norvegicus with 8 samples.

Results

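The genes described here mark spinal motor neurons and the neurons that release acetylcholine: Chat, Slc5a7, Slc18a3, Chodl, Isl1, Isl2, Mnx1, Uts2, Calca and Calcb. A gene was taken as measured when a probe set of the array carried its symbol and no other, and the value of a gene on an array is the mean of its probe sets. By this rule 8 of the 10 genes were measured, each by 1 probe set, of 14506 genes in all. Chat and Mnx1 had no such probe set and were not analysed here. The arrays were made from dorsal ipsilateral spinal cord of adult male Wistar rats, taken at day 14 after transection of the L5 spinal nerve, with 4 HDACi-treated and 4 vehicle-treated animals and 1 array for each. HDACi animals received MS-275, an inhibitor of class I histone deacetylases, intrathecally from an osmotic pump at 30 nmol/d, and vehicle animals received the dimethyl sulfoxide and saline solvent from the same kind of pump. Both groups carried the nerve injury, so no uninjured cord enters the comparison, and the dorsal ipsilateral part was isolated by dissection. Values are log2 RMA signals, a scale on which a difference of 1 is a doubling. The genes were chosen by values of this same comparison, namely their difference between HDACi and vehicle and their variation among the vehicle arrays, so both are given as a description and are not tested.

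Acetylcholine is made from choline and acetyl coenzyme A by choline acetyltransferase, the product of Chat. The transporter CHT (Slc5a7) brings choline back into the terminal, and VAChT (Slc18a3) loads the transmitter into synaptic vesicles. In the spinal cord the largest cholinergic cells are the somatic motor neurons of the ventral horn, whose axons leave through the ventral roots and the spinal nerve, and smaller cholinergic interneurons lie around the central canal and in the dorsal horn. Motor neuron identity is set in the embryo by the homeodomain factors Isl1, Isl2 and Mnx1. Adult motor neurons also make CGRP, encoded by Calca and Calcb, and the vasoactive peptide urotensin II, encoded by Uts2, while Chodl, a C-type lectin, marks fast motor neurons in the mouse. CGRP is also a peptide of primary afferents, whose cell bodies lie in the dorsal root ganglia and not in the cord.

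In the rat annotation Slc18a3 lies within the span of Chat, and Calca and Calcb are neighbours with 0 annotated genes between them. The promoters of both transporters and of both peptide genes with the widest spread are shown, since the results turn on these genes, as RefSeq gives them for GRCr8, from 250 bases before the start of the gene to 50 after it. The stretches are chr9:7953460-7953759, strand - for Slc5a7, chr16:7722765-7723064, strand - for Slc18a3, chr5:166733421-166733720, strand + for Uts2 and chr1:178317480-178317779, strand - for Calca, each 300 bases long and written 5′ to 3′. Capitals mark TGACG or its reverse complement CGTCA, the core letters of the cAMP response element, searched on both strands, a motif chosen after the sequences had been read.
Slc5a7: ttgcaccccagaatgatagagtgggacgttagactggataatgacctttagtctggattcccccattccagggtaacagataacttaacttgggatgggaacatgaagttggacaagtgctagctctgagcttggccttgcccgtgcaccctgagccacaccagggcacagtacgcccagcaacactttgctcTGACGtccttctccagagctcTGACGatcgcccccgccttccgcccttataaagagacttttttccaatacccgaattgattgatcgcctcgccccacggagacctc
Slc18a3: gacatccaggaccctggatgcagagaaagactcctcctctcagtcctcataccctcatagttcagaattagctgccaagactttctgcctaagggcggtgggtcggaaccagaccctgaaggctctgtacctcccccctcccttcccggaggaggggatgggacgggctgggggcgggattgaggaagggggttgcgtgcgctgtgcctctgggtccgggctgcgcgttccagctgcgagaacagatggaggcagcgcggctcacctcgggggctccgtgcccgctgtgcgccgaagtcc
Uts2: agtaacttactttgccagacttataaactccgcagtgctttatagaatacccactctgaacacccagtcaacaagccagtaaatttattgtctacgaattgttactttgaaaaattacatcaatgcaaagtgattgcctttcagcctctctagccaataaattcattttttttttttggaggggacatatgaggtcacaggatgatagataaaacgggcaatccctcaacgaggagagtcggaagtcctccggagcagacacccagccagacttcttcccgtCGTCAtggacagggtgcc
Calca: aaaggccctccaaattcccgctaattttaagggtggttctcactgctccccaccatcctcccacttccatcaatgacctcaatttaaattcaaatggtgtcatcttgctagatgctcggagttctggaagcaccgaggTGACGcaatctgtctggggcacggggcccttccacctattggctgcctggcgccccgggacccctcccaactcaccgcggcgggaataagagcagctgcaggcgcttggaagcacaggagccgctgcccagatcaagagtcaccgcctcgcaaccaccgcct
Promoters of 9 of the 10 genes, all but Calcb, were in the table. These letters stood in 6 of these 9 on either strand (Chat, Slc5a7, Isl2, Mnx1, Uts2 and Calca), and in 21.2% of all 33469 promoters of the same length. Slc5a7 held them 2 times, at positions -57 and -36 from the start, Calca 1 time at -112 and Uts2 1 time at 33, after the start, and the Slc18a3 stretch did not hold them. A match of these letters is a description only.

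The transporters of cholinergic terminals were lower on average with HDACi and spread widely among the vehicle animals. Slc18a3 read 7.31, 8.07, 8.38 and 6.98 on HDACi replicates 1 to 4, and 9.24, 10.09, 7.41 and 8.28 on vehicle replicates 1 to 4. Vehicle replicates 1 and 2 lay above every HDACi array, whereas vehicle replicates 3 and 4 lay inside the HDACi range. Its mean was 7.68 ± 0.65 with HDACi and 8.75 ± 1.16 with vehicle (SD, n = 4 each), a log2 difference of -1.07 (standard error 0.54). Slc5a7 read 8.76, 8.76, 9.25 and 8.54 with HDACi, against 9.75, 10.49, 9.05 and 9.004 with vehicle. Again vehicle replicates 1 and 2 were the 2 highest arrays, and the groups overlapped through HDACi replicate 3. The Slc5a7 means were 8.83 ± 0.30 with HDACi and 9.57 ± 0.70 with vehicle, a difference of -0.75 (standard error 0.31). In these bulk samples fewer cells of a type and less RNA per cell cannot be told apart, for these genes and for all that follow. Nor can either be told apart from a difference in how much ventral horn the dissected dorsal pieces carried, which was not tested.

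Chodl and Uts2, a lectin and a peptide of motor neurons, showed the same high pair. Chodl read 6.71, 6.47, 6.997 and 6.07 with HDACi, and 8.31, 9.15, 6.51 and 6.94 with vehicle, so that 2 of the vehicle arrays stood apart and the other 2 read within the HDACi range. The Chodl difference was -1.17 (standard error 0.52). Uts2 read 7.15, 8.30, 7.64 and 7.30 with HDACi, against 10.44, 10.40, 7.06 and 7.81 with vehicle. Its vehicle arrays covered a 10.5-fold range and its HDACi arrays a 2.21-fold range, and vehicle replicate 3 was the lowest of all 8. Its group means were 7.60 ± 0.51 with HDACi and 8.93 ± 1.75 with vehicle, a difference of -1.33 (standard error 0.74).

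Of the CGRP genes, Calca gave the widest spread of the 8 genes and Calcb a narrower one. Calca read 6.25, 9.24, 7.85 and 6.25 with HDACi, and 10.14, 10.86, 6.39 and 8.80 with vehicle. The 8 arrays thus covered a 24.5-fold range, with a low array in each group (HDACi replicates 1 and 4, vehicle replicate 3) and high arrays in both. Within vehicle alone the range was 22.3-fold, and within HDACi 7.96-fold. The Calca means were 7.40 ± 1.44 with HDACi and 9.05 ± 1.97 with vehicle, a difference of -1.65 (standard error 0.99). Calcb read 6.56, 6.72, 6.59 and 6.35 with HDACi, and 7.03, 7.68, 6.45 and 6.89 with vehicle, a difference of -0.46 (standard error 0.22). Calca and Calcb are close paralogs, and signal shared between their probe sets cannot be told apart from signal of each gene.

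The homeodomain factors differed little. Isl1 read 6.78, 6.73, 7.08 and 6.64 with HDACi, against 6.88, 7.22, 7.04 and 7.03 with vehicle, and its groups overlapped (difference -0.23, standard error 0.10). Isl2 read 6.01, 5.93, 5.92 and 5.93 with HDACi, and 6.09, 6.23, 6.01 and 6.04 with vehicle, a difference of -0.15 (standard error 0.06). Isl2 was the 1 gene of the 8 without overlap between the groups, where 2.76% of all features were lower and 1.57% higher with HDACi without overlap, and the highest HDACi array and the lowest vehicle array were both at 6.01. Its level was not shown to lie above background. As a measure of background, 53 olfactory receptor genes, which the cord is not known to use, had a mean of 5.29 and a 95th percentile of 6.94. Slc5a7, Slc18a3 and Uts2 were above 6.94 on all 8 arrays, Calca on 5, Chodl and Isl1 on 4, Calcb on 2 and Isl2 on none. Differences between low readings are compressed on this scale.

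**Figure D1:**
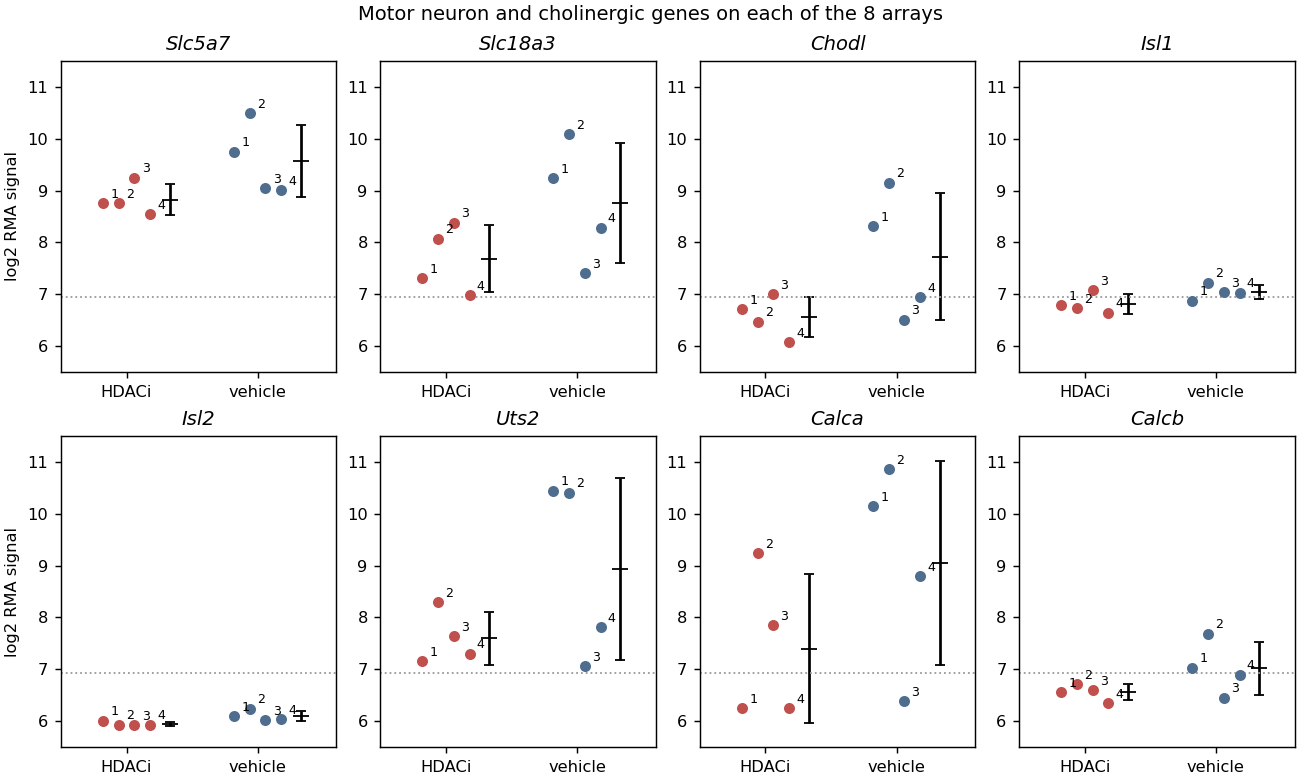
Log2 RMA signal (vertical axis, the same in each panel) of the 8 measured genes on the 4 HDACi arrays (left) and the 4 vehicle arrays (right). Points are arrays with their replicate number, black marks are the group mean with its SD, and the dotted line is the 95th percentile of olfactory receptor genes (6.94). Vehicle replicates 1 and 2 stand above all HDACi arrays for each gene but Isl1.

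All 8 genes had a lower mean with HDACi than with vehicle, where 56.4% of all 28410 features did. In the limma fit across all features 0 of the 8 had an unadjusted p under 0.01, against 1.26% of features (0.641% higher and 0.616% lower with HDACi). At an unadjusted p under 0.05 there were 3 (Slc5a7, Isl1 and Isl2), all lower, against 6.47% of features (2.7% higher and 3.76% lower). After adjustment 0.00352% of features, 1 of 28410, passed. Since this comparison chose the genes, nothing is read from these counts. By size of the log2 difference in either direction, Calca ranked 2, Uts2 4, Chodl 8 and Slc18a3 9 of all features. Their standard errors were as far out, that of Chodl being larger than in 99.894% of features, of Slc18a3 than in 99.912%, of Uts2 than in 99.965% and of Calca than in 99.989%. Without vehicle replicates 1 and 2, left out after they were seen to be the highest for most of these genes, so that a smaller difference was fixed by that choice, Slc18a3 differed by -0.16 (standard error 0.42), Slc5a7 by -0.20 (0.17), Chodl by -0.16 (0.245), Calca by -0.19 (0.98) and Calcb by -0.12 (0.14). Uts2 changed sign, to 0.16 (standard error 0.34). Isl1, at -0.23 (0.12), and Isl2, at -0.08 (0.05), moved least. Leaving out 1 array at a time, all 8 differences stayed below 0. Without vehicle replicate 2 alone the difference was -0.44 for Slc5a7, -0.63 for Slc18a3, -0.69 for Chodl, -0.84 for Uts2, -1.04 for Calca and -0.24 for Calcb. Without vehicle replicate 1 alone it was -0.83 for Uts2, and without vehicle replicate 3 alone -2.54 for Calca. Isl1 stayed between -0.32 and -0.17 and Isl2 between -0.17 and -0.10.

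**Figure D2:**
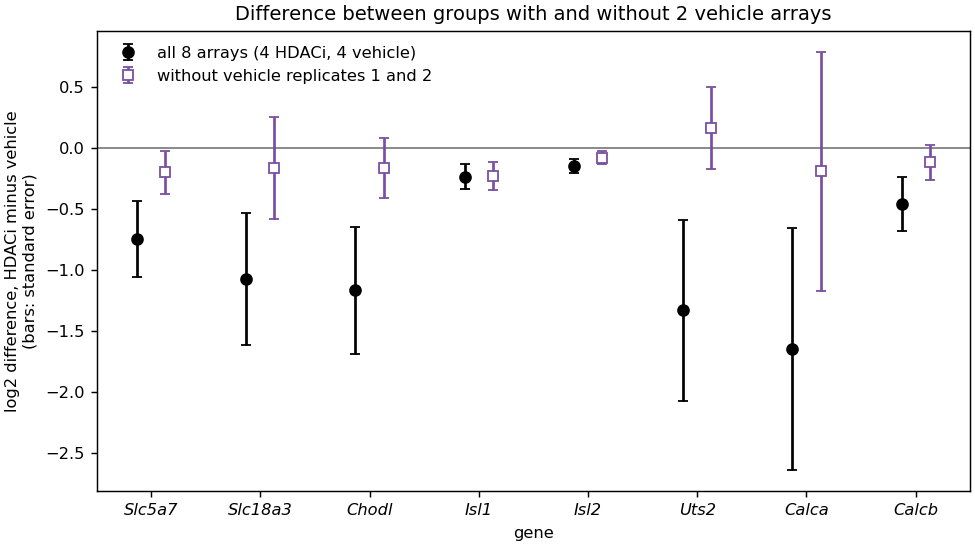
Log2 difference, HDACi minus vehicle, for each gene, with bars of 1 standard error from limma. Filled circles use all 8 arrays and open squares leave out vehicle replicates 1 and 2, which brings Calca to -0.19 and Uts2 to 0.16, against -1.65 and -1.33 with all arrays.

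The same arrays were high for most of the genes. Vehicle replicate 2 was the highest of the 8 arrays for 7 genes and vehicle replicate 1 for Uts2. For 7 of the 8 genes these were the 2 highest vehicle arrays, Isl1 being the exception, and vehicle replicate 3 was the lowest vehicle array for 6. HDACi replicate 4 was the lowest of all arrays for 5 genes. The range among vehicle arrays exceeded 1 on the log2 scale for 6 of the 8 genes, and for 1.07% of all features. The SD among vehicle arrays was larger for Uts2 than for 99.993% of features and for Calca than for 99.9965%. Variation was also present among HDACi arrays, where the SD of Slc18a3 (0.65) was larger than that of 99.7% of features and the SD of Calca (1.44) than that of 99.9824%. As a description over the 8 arrays, which all genes share, the 28 pairs of genes had Pearson correlations from 0.35 to 0.98, with a median of 0.87. On deviations from the group means the median was 0.81. Slc5a7 and Chodl formed the closest pair (r = 0.98, rho = 0.88), and Isl1 and Uts2 the least close (r = 0.35, rho = 0.14). Calca followed Slc18a3 (r = 0.93) more than it followed Slc5a7 (r = 0.78), and HDACi replicate 2 was the highest HDACi array for Calca and not for Slc5a7.

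Genes outside the list were then ranked by how closely they followed the mean of Slc5a7 and Slc18a3 over the 8 arrays (Pearson r, a description with no p, all genes sharing the same arrays), among 677 genes with a mean at or above the median and an SD of at least 0.15. Slc10a4, which encodes a vesicular protein of cholinergic and monoaminergic terminals, came first (r = 0.99, rho = 0.98). It read 8.24, 8.63, 8.68 and 8.16 with HDACi, and 9.45, 9.95, 8.34 and 8.72 with vehicle, again with vehicle replicates 1 and 2 on top. The neuronal β-tubulin Tubb3 (r = 0.98), Susd2 (0.97), the growth-associated microtubule protein Stmn2 (0.97) and Tspan17 (0.96) followed. Next came peripherin (Prph, 0.96), an intermediate filament of motor and sensory neurons with long peripheral axons, Fgf11 (0.96), the neurofilament subunits Nefm (0.96) and Nefh (0.94), and Fgf1 (0.92), a growth factor of motor neurons. Prph read 8.73, 9.83, 9.45 and 8.41 with HDACi, and 10.48, 11.20, 8.88 and 9.61 with vehicle, with HDACi replicate 2 high as it was for Calca. On deviations from the group means these 10 correlations ran from 0.91 to 0.98. Their log2 differences, part of the pattern they were ranked on and so not tested, lay between -0.93 (Prph) and -0.17 (Stmn2).

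The genes at the other end of this ranking, a list chosen after its values were seen, were Ebf1 (r = -0.91), Hoxb9 (-0.90), Zic1 (-0.88), Doc2b (-0.87), Retsat (-0.86), Syt10 (-0.84), Nrgn (-0.83), Drgx (-0.82), Cpne5 (-0.80) and Calb1 (-0.80). Zic1 and Drgx encode transcription factors of the dorsal cord, and Calb1 the calcium buffer calbindin, abundant in superficial dorsal horn neurons. The other genes of this end were not assigned to a part of the cord. Among them was Retsat, with the largest difference of this end (0.37, standard error 0.09). Ebf1 read 11.16, 10.95, 10.92 and 11.24 with HDACi, and 10.81, 10.73, 10.97 and 11.04 with vehicle. Its lowest readings were those of vehicle replicates 1 and 2 and its highest that of HDACi replicate 4, the array lowest for Slc18a3.

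**Figure D3:**
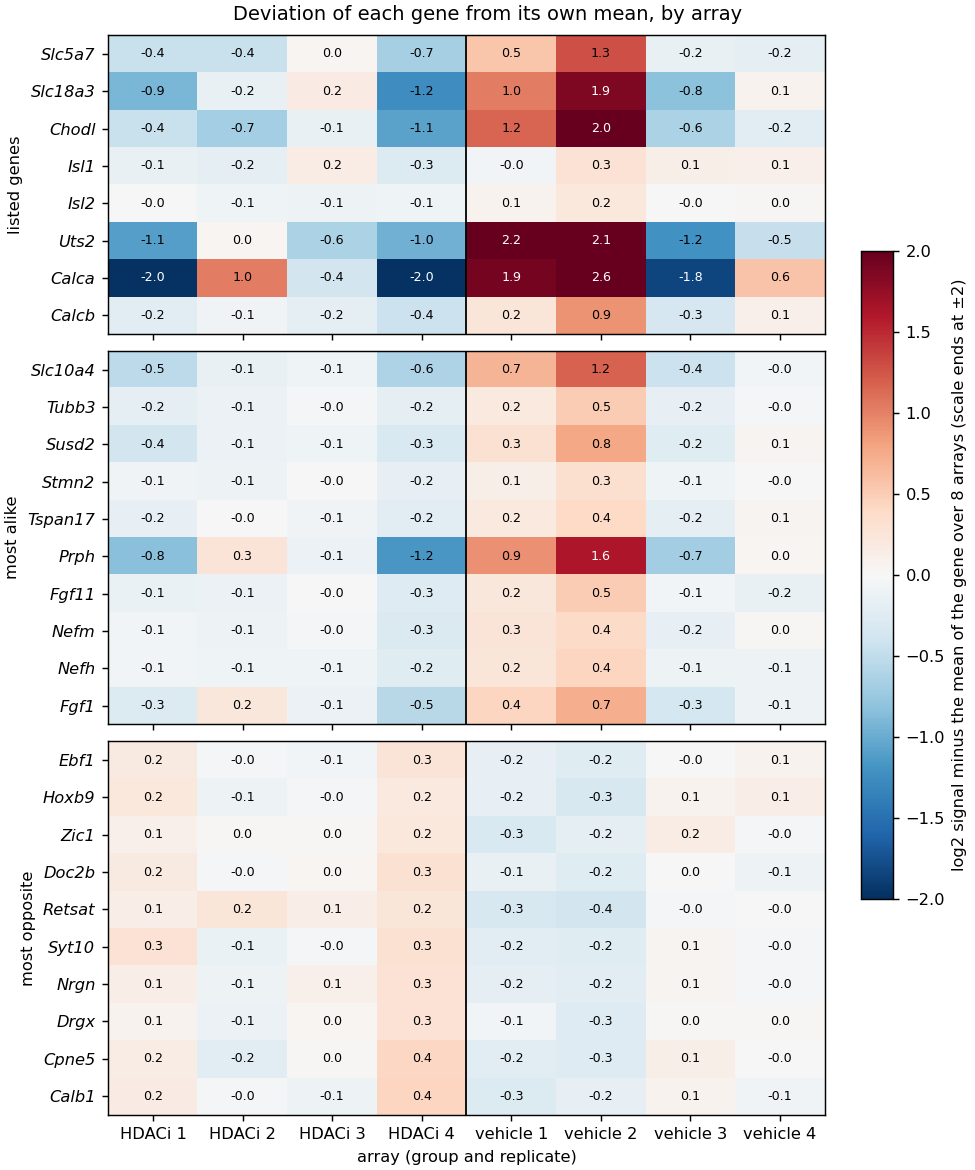
Log2 signal minus the mean of each gene over the 8 arrays (colour and printed value, scale ending at ±2) for the 8 measured genes, the 10 most alike and the 10 most opposite genes (rows) on the 4 HDACi and 4 vehicle arrays (columns). Vehicle replicates 1 and 2 are high in the upper blocks, other than replicate 1 for Isl1, and low in the lowest one, and HDACi replicate 4 is low in the upper blocks and high in the lowest one.

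Other motor neuron genes were taken from a list, of which 17 of 19 were measured. None passed at an unadjusted p under 0.01 in limma, 13 lay below 0 and 4 above, and their median difference was -0.11, where the median over all features was -0.01. The neurofilaments Nefl (-0.12, standard error 0.05), Nefm (-0.25, 0.11) and Nefh (-0.23, 0.12) all lay below 0, and Prph had -0.93 (0.49). The nuclear receptor Esrrb had the smallest p of the list (-0.11, standard error 0.04, unadjusted p = 0.0271, adjusted p = 0.751 from limma). Chat was to be set against the means of 5 lists over the arrays. As it had no probe set, Slc18a3 took its place, a change made after values were seen. Its variation over these arrays was among the reasons it was chosen, so the correlations are a description over the same 8 arrays, with no p. Slc18a3 and the mean of the other motor neuron genes had r = 0.92 and rho = 0.88, and r = 0.90 on deviations from the group means. That mean was 8.92, 9.09, 8.95 and 8.83 on the HDACi arrays, and 9.10, 9.27, 8.92 and 9.004 on the vehicle arrays. Without the 2 arrays farthest from the median of the list mean, HDACi replicate 4 and vehicle replicate 2, r was 0.75. A few genes carried much of the list mean, since Prph had a range of 2.79 on the log2 scale over the 8 arrays, Aldh1a2 one of 1.57 and Spp1 one of 1.56. Without Prph r was 0.86, and without Prph and Spp1 it was 0.81, where the list mean had a range of 0.21. Gene by gene, 13 of the 17 had an r above 0 with Slc18a3 and 4 below 0, with a median of 0.30. The 6 genes above 0.8 were Prph (0.98), Nefm (0.95), Nefh (0.91), Nefl (0.89), Spp1 (0.88) and Gfra1 (0.86), a receptor for GDNF, which supports motor neurons. Vehicle replicate 2 was the highest array for 9 of the 17. It was the lowest for Lhx3 (7.47, r = -0.52), a LIM factor of embryonic motor neurons, and for Mmp9 (6.20, r = -0.78), a protease of fast motor neurons in the mouse whose readings were not above the 95th percentile of olfactory receptors on any array. Htr1d (-0.37) and Aldh1a2 (-0.24), the enzyme of retinoic acid synthesis, also had an r below 0. Aldh1a2 was highest on HDACi replicate 2 and lowest on vehicle replicate 1. The mean of the leptomeningeal fibroblast list was also highest on HDACi replicate 2, and lowest on HDACi replicate 1. The part of meningeal tissue in the readings of Aldh1a2, and so in the motor neuron list mean, was not tested.

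With the mean of the dorsal horn neuron genes, Slc18a3 had r = -0.61 and rho = -0.60, and r = -0.09 without HDACi replicates 1 and 4. With ventral interneuron genes r was -0.04 (rho = 0.02), with primary afferent genes -0.44 (rho = -0.36) and with leptomeningeal fibroblast genes 0.37 (rho = 0.43). On deviations from the group means r was -0.45 for dorsal horn neurons, -0.43 for ventral interneurons, -0.48 for primary afferents and 0.61 for leptomeningeal fibroblasts.

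**Figure D4:**
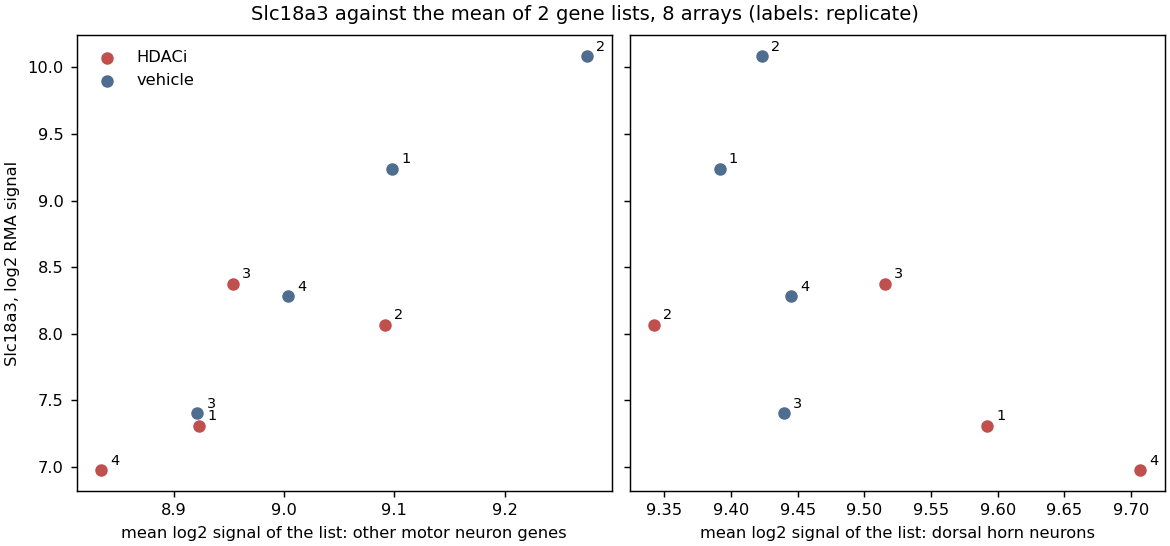
Slc18a3 (vertical axis, log2 RMA signal) against the mean log2 signal of the other motor neuron genes (left) and of dorsal horn genes (right) on the 4 HDACi and 4 vehicle arrays, labelled by replicate. The left panel has r = 0.92 and the right panel r = -0.61 over the 8 arrays.

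Genes that act on acetylcholine after its release, or that receive it, were next compared. The mean of the breakdown and choline list stayed within a 1.10-fold range over the 8 arrays, that of the nicotinic subunits within 1.14-fold and that of the muscarinic receptors within 1.18-fold. Of 12 measured genes of acetylcholine breakdown, choline uptake and choline lipid synthesis, none passed at an unadjusted p under 0.01 and 8 lay below 0 (median -0.06). Acetylcholinesterase (Ache), which degrades the transmitter and is also made by non-cholinergic neurons, read 11.23, 10.89, 11.23 and 11.11 with HDACi, and 11.21, 11.30, 11.28 and 11.15 with vehicle. Colq, the collagen tail that anchors the enzyme, had the smallest p (-0.16, standard error 0.05, unadjusted p = 0.0127, adjusted p = 0.747 from limma). Of 16 nicotinic receptor subunits 13 lay below 0 (median -0.06) and none passed. In limma 4 of them (25%) had an unadjusted p under 0.05, where 6.47% of all features did, and none passed after adjustment. Of these 4, Chrna5 (0.12, standard error 0.05) lay above 0. The smallest p belonged to the muscle subunit Chrna1, at 6.62, 6.83, 6.67 and 6.69 with HDACi and 7.01, 7.29, 6.81 and 6.94 with vehicle (-0.31, standard error 0.10, unadjusted p = 0.0102, adjusted p = 0.747 from limma). Its HDACi readings were all below the 95th percentile of olfactory receptors. Chrnb1 (-0.17, standard error 0.06) and the neuronal subunit Chrnb2 (-0.21, 0.07) had no overlap between the groups, where 2.76% of all features were lower and 1.57% higher without overlap. Chrnb1 was above the 95th percentile of olfactory receptors on 0 arrays and Chrnb2 on 8. Chrna4 (-0.09) and Chrna7 (-0.09) overlapped. None of the 5 muscarinic receptors passed, with Chrm2, the receptor of many motor neurons, at -0.19 (standard error 0.09) and Chrm5 at 0.14 (0.07).

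Receptors of the peptides were also on the array. Among 9 genes of the CGRP family and its receptors none passed and the median was 0.02. The CGRP receptor Calcrl read 10.59, 10.82, 10.56 and 10.80 with HDACi, and 10.56, 10.69, 10.70 and 10.75 with vehicle, and its partner Ramp1 stayed between 9.57 and 9.66 on every array. The urotensin receptor Uts2r had -0.09 (standard error 0.06), and the related peptide gene Uts2b was at 4.80 to 5.08 on all arrays, below the mean of the olfactory receptors. Of 11 LIM homeobox genes and cofactors, relatives and partners of Isl1 and Isl2, none passed at an unadjusted p under 0.01. Ldb2, a cofactor of LIM factors, had 0.16 (standard error 0.07, unadjusted p = 0.0463 from limma). Over all lists together, 0 of 151 genes had an unadjusted p under 0.01 and 10 (6.62%) one under 0.05, where 6.47% of all features did. By list the share under 0.05 ran from 0% to 25%, the highest being that of the nicotinic subunits.

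Lists for other parts and cell types of the cord were read on the same arrays. Peptides of dorsal horn neurons, which lie in the dorsal tissue that was dissected, were present. Penk read between 11.93 and 12.32 and Sst between 11.67 and 12.14. Of 17 measured dorsal horn genes 14 lay above 0 (median 0.13) and none passed, Grpr, the receptor for gastrin-releasing peptide, having the smallest p (0.23, standard error 0.09, unadjusted p = 0.0371 from limma). Their mean was 9.59, 9.34, 9.52 and 9.71 with HDACi, against 9.39, 9.42, 9.44 and 9.45 with vehicle. Of 7 pan-neuronal genes, all lay below 0 and none passed (median -0.05). Elavl4 had the smallest p of these (-0.17, standard error 0.06, unadjusted p = 0.0125, adjusted p = 0.747 from limma). Tubb3 (-0.26, standard error 0.13) and Stmn2 (-0.17, 0.09), named above for following Slc5a7 and Slc18a3, belong to this list. Ventral interneuron genes, 7 measured of 11, had a median of -0.09. The 10 measured primary afferent genes had a median of 0.01 and a mean between 7.03 and 7.13 on the HDACi arrays and between 6.99 and 7.20 on the vehicle arrays. Of these, 7 were above the 95th percentile of olfactory receptors on all 8 arrays, among them the capsaicin receptor Trpv1 (7.43 to 7.65), the sensory neuron factor Pou4f1 (8.24 to 8.49) and Drgx, which dorsal horn neurons also make. The sodium channels Scn10a (6.04 to 6.41) and Scn11a (5.33 to 5.65) and the channel Trpa1 (5.13 to 5.65) were below it on every array. The part of afferent RNA in the readings of Calca and Calcb was not tested.

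Schwann cell genes, which mark the myelin of nerve roots, also varied widely over the arrays, with a 2.66-fold range of the list mean with HDACi and 2.65-fold with vehicle. Their mean over 5 measured genes was 8.57, 9.79, 9.17 and 8.38 with HDACi, and 9.48, 9.78, 8.37 and 8.68 with vehicle. Vehicle replicates 1 and 2 were high, as for Calca, and HDACi replicate 2 was as high as they were. The myelin protein periaxin (Prx) read 7.74, 9.88, 8.92 and 7.53 with HDACi, and 9.40, 9.73, 7.32 and 8.11 with vehicle. The 8 measured leptomeningeal fibroblast genes had means of 8.60, 9.91, 9.002 and 8.97 with HDACi, and 8.97, 9.34, 8.64 and 8.82 with vehicle, highest in HDACi replicate 2. The part of root and meningeal tissue in the readings of the motor neuron genes was not tested. All 5 Schwann cell genes lay below 0 (median -0.12), and neither list had a gene at an unadjusted p under 0.01. Astrocyte, oligodendrocyte and microglial lists had means within 1.16-fold, 1.12-fold and 1.30-fold ranges over the 8 arrays.

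Of the genes that motor and sensory neurons raise when their axons are cut, 10 of 11 were measured, none passed and 7 lay below 0 (median -0.05). Atf3, the transcription factor most used as a mark of an injured neuron and named here after its values were seen, read 7.31, 8.48, 7.55 and 7.38 with HDACi, and 8.70, 9.33, 7.34 and 8.09 with vehicle. Its order over the arrays was close to that of Calca, with vehicle replicates 1 and 2 highest and HDACi replicate 2 next. Atf3 differed by -0.69 (standard error 0.41). Hspb1 read 9.23, 10.08, 9.33 and 9.89 with HDACi, and 9.98, 10.71, 8.62 and 9.27 with vehicle. Its vehicle arrays covered a 4.27-fold range in the same order as those of Slc18a3, with a group difference of -0.008 (standard error 0.40). Gap43, a protein of growing axons, moved little, between 9.75 and 10.01, and Sox11 between 8.40 and 8.64. Csf1, the cytokine that injured neurons send to microglia, had 0.19 (standard error 0.10).

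**Figure D5:**
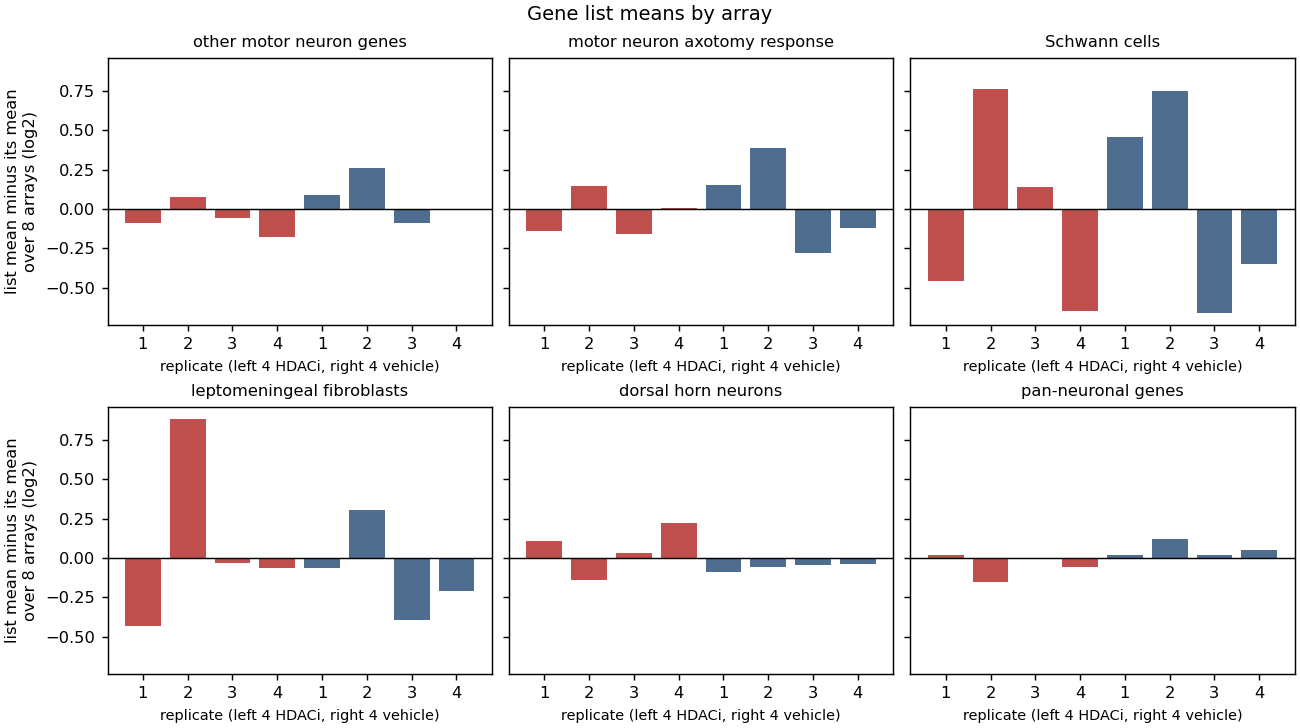
Mean log2 signal of 6 gene lists on each array, as the difference from the mean of the list over the 8 arrays (bars from 0), with the 4 HDACi arrays on the left of each panel and the 4 vehicle arrays on the right. Schwann cell genes are high on HDACi replicate 2 and on vehicle replicates 1 and 2, and leptomeningeal genes highest on HDACi replicate 2 (9.91).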

How the data were processed

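RNA of dorsal ipsilateral lumbar cord from 4 HDACi and 4 vehicle rats was hybridized by the authors to Affymetrix Rat Gene 1.0 ST arrays. Scans were normalized by RMA in oligo, and the authors deposited the resulting log2 values for 29214 probe sets (tool versions and genome build: not given in the sources used here). Array medians were 7.95 to 7.98 and correlations between arrays 0.993 to 0.997. Groups and replicate numbers came from the sample titles. Symbols came from the platform annotation, updated by Entrez number through RefSeq (GRCr8, 15279 of 15310 probe sets with 1 symbol). Probe sets of 1 gene were averaged, and 323 with several symbols and 13581 not listed were kept as they were, giving 28410 features. These were compared with lmFit and eBayes of limma 3.58.1 (R 4.3.3), two-sided, adjusted by the Benjamini-Hochberg method, without filter or block. The number of arrays limits the precision. Correlations of Slc18a3, put in place of Chat, are given without the planned permutation p, since its variation was among the reasons it was chosen. Genes and lists were chosen with earlier results of these data known. Named genes are the 10 listed, in each list those under 0.01 or up to 3 with the smallest p, and the 10 most alike in pattern to Slc5a7 and Slc18a3 (Chat, not measured, was to be included), other names being chosen after values were seen. On data simulated for this comparison (28410 features), limma recovered 97% of 67 features changed by 0.5 at an unadjusted p under 0.01 and 77.6% after adjustment. Of 28210 unchanged ones 1.11% had an unadjusted p under 0.01. The changed features were drawn at random from all features, whose median standard error was 0.065. Slc5a7 had 0.31, Chodl 0.52 and Calca 0.99, so these rates do not hold for the listed genes of wide spread. Alternatives were other settings of eBayes, filters, normalization, weights, probe sets, the replicate block and leaving out arrays.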

Additional observations from a re-analysis of the deposited data

Results flagged for a closer look

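With 4 arrays a group, a reading is picked out when the gap to its nearest neighbour takes up most of the range of its group (Dixon's test), which chance does in about 1 of 20 groups. Of 70 groups of readings examined, 2 were picked out. Isl2 on HDACi replicate 1 was 6.01, against 5.92 to 5.93 on the other HDACi arrays, a gap of 0.906 of the range, at a level not shown to lie above background. The mean of the LIM homeobox genes on HDACi replicate 2 was 8.39, against 8.48 on the other HDACi arrays, a gap of 0.984 of the range. Vehicle replicates 1 and 2, being a pair, are not picked out in this way for any of the 8 genes.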

How the results depend on the processing

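The differences of all 8 genes stayed below 0 after further quantile normalization, centring, array weights and leaving out 1 array, and 7 did without vehicle replicates 1 and 2 together, Uts2 (0.16) being the exception. The replicate block and the choice of probe set could not move them, as groups were balanced and each gene had 1 probe set. At an unadjusted p under 0.01, limma called 175 features lower and 182 higher. The lower count was 286 without moderation of the variances, 112 with the replicate block and 513 without vehicle replicates 1 and 2 together, when 351 were higher. Leaving out 1 array it ran from 104 (without HDACi replicate 4) to 276 (without vehicle replicate 2), with 115 without HDACi replicate 2, and the higher count from 95 (without HDACi replicate 4) to 210, with 119 without vehicle replicate 3. Of the 151 list genes 0 were called. This count was 1 with trend, without moderation, with a filter at the median, after a further quantile normalization and after centring, 3 with array weights, 3 with the replicate block, 4 without vehicle replicates 1 and 2 together and 0 to 4 without 1 array (4 without HDACi replicate 2, 3 without vehicle replicate 2, 2 without HDACi replicate 1 or vehicle replicate 3, 1 without vehicle replicate 4). The cause was not tested. Deviations from the group means correlated at -0.21, 0.23, 0.06 and 0.00 between same-numbered arrays (replicates 1 to 4). Arrays with different numbers were not compared, so these values cannot decide whether the numbers pair the arrays. The correlation of Slc18a3 with the motor neuron list ran from 0.83 (without vehicle replicate 2) to 0.96 without 1 array. The other correlations ran from -0.22 to 0.33 for ventral interneurons, -0.72 to -0.42 for dorsal horn, -0.66 to -0.11 for primary afferents and 0.24 to 0.77 for leptomeningeal fibroblasts.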
